A study of Nicotiana tabacum with 9 samples.

Results

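Pollen of *ATG5*-silenced tobacco was compared directly with pollen of *ATG2*-silenced tobacco, using 3 libraries of each line and so 6 of the 9 libraries of the series. The libraries were chosen by their genotype labels, and the 3 libraries of unsilenced plants were not used. All plants were *Nicotiana tabacum*, cultivar Petite Havana SR1, raised in a glasshouse, and each silenced line carried an RNA interference construct, against *ATG5* in one and against *ATG2* in the other. The pollen was labelled bicellular. The promoter of the constructs, and whether a line stands for 1 or several transformants, are not given in the sources used here, so a difference between the lines cannot be told apart from a difference between the plants chosen. The replicates were described as independent, without saying whether they came from separate plants, so p-values measure only the spread between these libraries.

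Autophagy encloses cytoplasm in a double membrane, the autophagosome, and delivers it to the vacuole for breakdown. ATG5 is joined to ATG12, and this conjugate helps to attach ATG8 to lipid on the growing membrane. ATG2 works with ATG9 and ATG18 and carries lipids into the growing membrane. The question was in which transcripts pollen silenced for the one gene differed from pollen silenced for the other. Tobacco pollen stores a large stock of transcripts for germination and tube growth, and a few pollen genes make up much of its mRNA.

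Expression was given as FPKM, the fragments of a gene set against its length and the size of the library, for 76785 gene identifiers. Of these, 69099 were annotated tobacco genes and 7686 were transcripts outside the annotation, called unannotated transcripts here. A gene was tested when it reached 0.5 FPKM in at least 3 of the 6 libraries, and 26672 genes did. Before the test each library was divided by a scaling factor, which lay between 0.822 and 0.863 for *ATG5*-silenced libraries and between 1.15 and 1.2 for *ATG2*-silenced libraries. FPKM are given below as deposited, so a gene of equal FPKM in both lines has a log2 change above 0. A gene passed at an adjusted p under 0.05 and was called when its fold was also above 2 or below 0.5. Log2 changes are *ATG5*-silenced minus *ATG2*-silenced pollen, on the scale log2(scaled FPKM + 0.5), which understates the changes of weakly expressed genes. Read counts were not used here, so the depth behind a value is unknown.

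Both silenced genes were weakly expressed. *ATG5* (GeneID:107810645) was at 0.18, 0.23 and 0.10 FPKM in *ATG5*-silenced pollen, against 1.3, 1.8 and 1.5 FPKM in *ATG2*-silenced pollen. The groups did not overlap, and the log2 change was -1.36 ± 0.16 (SE, n = 3 each). *ATG2* (GeneID:107801867) was at 0.65, 0.58 and 0.57 FPKM in *ATG5*-silenced pollen, against 0.20, 0.30 and 0.20 FPKM in *ATG2*-silenced pollen. This gene was higher in every *ATG5*-silenced library, with a log2 change of 0.79 ± 0.13 (SE, n = 3 each). Each gene reached 0.5 FPKM only in the line where it was high, so no adjusted p is given. Each silenced gene was thus lower in the line labelled with its name. On the FPKM alone, an exact two-sided permutation test gave p = 0.1 for each gene, which is the smallest that 3 against 3 libraries allow.

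The libraries of a line resembled each other more than those of the other line. On the log2 scale r was 0.96 to 0.969 among the *ATG5*-silenced libraries and 0.969 to 0.98 among the *ATG2*-silenced libraries, but 0.832 to 0.868 between the lines, as a description over the tested genes. The FPKM of a library summed to between 904845 and 916280 in *ATG5*-silenced pollen and to between 971813 and 1030772 in *ATG2*-silenced pollen. *ATG5*-silenced tables carried 2 decimals and *ATG2*-silenced tables carried 1, and any difference in how the tables of the lines were made cannot be told apart from the lines themselves. The 5 pollen markers were expressed in every library. They summed to 40156 to 44154 FPKM in *ATG5*-silenced pollen and to 27185 to 28573 FPKM in *ATG2*-silenced pollen. The markers did not move together, as 3 passed higher and 2, *PRO1* and *PPME1*, passed lower in *ATG5*-silenced pollen. Their median log2 change of 0.78 was -0.19 after quantile normalization. The 7 green tissue markers summed to 0.12 to 0.38 FPKM in *ATG5*-silenced pollen and to 0.7 to 1.5 FPKM in *ATG2*-silenced pollen, and none was tested. The stigma gene *STIG1* was listed at 0 in all *ATG5*-silenced libraries and at no more than 0.2 FPKM in *ATG2*-silenced ones. The 8 root markers summed to 0.69 to 1.33 FPKM in *ATG5*-silenced pollen and to 1.0 to 1.1 FPKM in *ATG2*-silenced pollen. The 1 root marker tested had a log2 change of 0.5 and did not pass. The part of other tissues in the results was not tested.

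In *ATG5*-silenced pollen the called genes numbered 3788 higher and 2675 lower, that is 14.2% and 10% of the tested genes. In bulk pollen, fewer cells of a type and less RNA per cell cannot be told apart. Among the rises, 2478 were below 4-fold, 849 were 4- to 8-fold and 461 were larger. Among the falls, 2316 were below 4-fold, 270 were 4- to 8-fold and 89 were larger. The scaled values of the lines did not overlap for 3767 of the rises and 2648 of the falls. Separate lines were common, as 64.5% of all tested genes did not overlap after scaling and 71.8% did not overlap in FPKM. Genes that reached 0.5 FPKM in libraries of one line only made up 8.43% of those tested, and such a gene had to lie higher in that line to be tested. They were 619 of the rises and 397 of the falls. When each library was left out in turn, 2523 rises and 1572 falls were called every time. Among genes that averaged 100 FPKM or more, 21.1% were called higher and 10.4% lower, against 8.08% and 4.56% of genes under 1 FPKM.

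The balance of rises and falls depended on how the libraries were scaled. Among the called genes 58.6% were higher with the median-of-ratios scaling used here, but 30% with FPKM as deposited and 36.4% with libraries set to equal totals. The median log2 change over all tested genes was -0.07 here, against -0.435 with FPKM as deposited, -0.344 with equal totals and -0.131 after quantile normalization. FPKM as deposited and equal totals move all genes downward, so rises drop out under them and falls hardly can. Quantile normalization does not move all genes alike. It took the log2 change of *ntp201* from 1.92 to 0.97, but that of *ATG2* from 0.79 to 0.80. Called under all 4 scalings were 2434 of the rises and 2673 of the falls, a difference in the direction of the downward shift. Below, a gene is said to pass or to be called under all 4 scalings where it did so in the same direction, which for a fall says little. Of the 7458 genes passing lower, 7358 did so under all 4 scalings, as did 4528 of the 7080 passing higher.

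**Figure D1:**
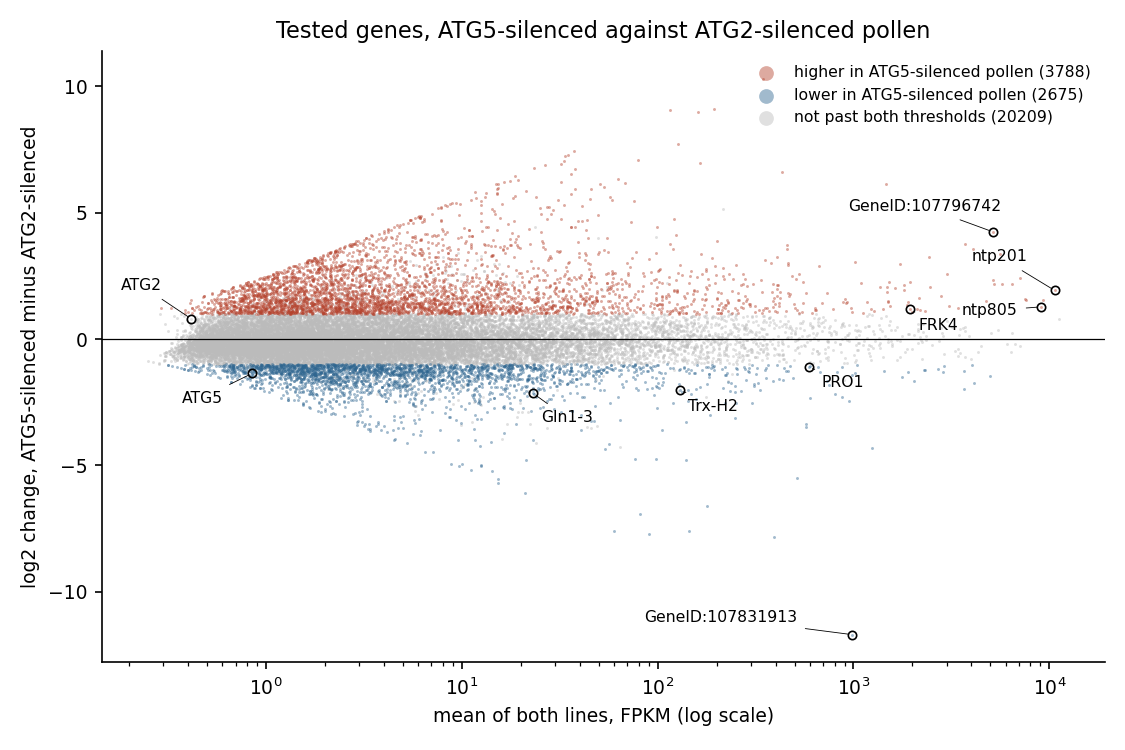
Log2 change of each tested gene, *ATG5*-silenced minus *ATG2*-silenced pollen, against its mean FPKM over both lines on a log axis. Red points are the 3788 genes called higher, blue points the 2675 genes called lower, and grey points the rest. Labelled circles mark 10 genes of the text, among them *ntp201* at the far right.

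Unannotated transcripts took the largest share of the rises. Of 6743 tested, 2142 were called higher and 805 lower, that is 31.8% and 11.9%. Of 15950 protein-coding genes in the reference, 1181 were called higher and 1349 lower, that is 7.4% and 8.46%. Of 1354 long non-coding RNAs, 12.4% were called higher and 12.1% lower. The unannotated transcripts made up 56.5% of all rises and 30.1% of all falls. Under the other 3 scalings 24% to 30.4% of the unannotated transcripts were called higher, against 4.11% to 7.02% of the annotated genes. Called lower were 12.9% to 19.1% of the unannotated transcripts and 11.3% to 22.1% of the annotated genes under these scalings, against 11.9% and 9.38% here.

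Some transcripts were listed in only one of the lines. At least 1 FPKM in all 3 *ATG5*-silenced libraries, while listed at 0 in all 3 *ATG2*-silenced libraries, was found for 207 transcripts, of which 200 were unannotated. The reverse was found for 47 transcripts, of which 37 were unannotated. A value just under 0.05 FPKM is listed as 0 in the *ATG2*-silenced tables only, and with all values at 1 decimal the counts were 213 and 49. The most abundant in *ATG5*-silenced pollen was unannotated transcript 26086, the number being that of its identifier, at 261, 1389 and 429 FPKM. Transcript 15003 followed at 77.1, 910.4 and 177 FPKM and transcript 6350 at 185, 290.1 and 220.2 FPKM in *ATG5*-silenced pollen. All 3 were listed at 0 in every *ATG2*-silenced library, and *ATG5*-silenced replicate 2 held the highest value of each. In the other direction stood GeneID:107831913, an annotated gene with no record in the current reference. It was listed at 0 in every *ATG5*-silenced library and was at 1848, 1978 and 2075 FPKM in *ATG2*-silenced pollen, where it ranked 83 of all genes by mean FPKM. Transcripts 19398 and 6147 were also listed at 0 in all *ATG5*-silenced libraries, against 96.9, 47.7 and 398 FPKM and 115, 75.4 and 170.3 FPKM in *ATG2*-silenced pollen. No fold is given for these, since one line was at 0.

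Among the 3 unannotated transcripts of largest fall were also transcripts 629 and 630. Transcript 629 was at 0, 0 and 39.1 FPKM in *ATG5*-silenced pollen, against 857, 1238 and 217 FPKM in *ATG2*-silenced pollen (limma, adjusted p = 0.0202). It did not pass without *ATG5*-silenced replicate 1 or 2 or *ATG2*-silenced replicate 1 or 2, at adjusted p = 0.0753, 0.0542, 0.0656 and 0.0613, nor with the replicate number as a block, at adjusted p = 0.0596. Transcript 630 was at 0, 0 and 4.43 FPKM in *ATG5*-silenced pollen, against 253, 469 and 142 FPKM in *ATG2*-silenced pollen, and it passed in every fit with 1 library left out. Both were above 0 in *ATG5*-silenced replicate 3 alone among the libraries of that line, and below every *ATG2*-silenced library.

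A large part of the pollen mRNA pool was allotted differently. The genes called higher held 40.1% to 40.2% of all FPKM in *ATG5*-silenced libraries, against 13.2% to 14.3% in *ATG2*-silenced libraries. The genes called lower held 4.05% to 4.72% in *ATG5*-silenced libraries, against 15.6% to 17.1% in *ATG2*-silenced libraries. These genes were chosen by the same values, so the shares describe the size of the shift and are no test of it. The 100 most abundant genes of a library held 42.8%, 41.5% and 42.3% of its FPKM in *ATG5*-silenced pollen, against 36.1%, 35.4% and 35.7% in *ATG2*-silenced pollen. The groups did not overlap (exact two-sided permutation test, p = 0.1, the smallest possible, adjusted p = 0.133 over 4 library measures). Fewer genes reached 1 FPKM in *ATG5*-silenced libraries, with 18733, 19352 and 19350, against 21090, 21494 and 21536 in *ATG2*-silenced libraries (exact permutation test, p = 0.1, adjusted p = 0.133). FPKM are shares of a library, so a rise of abundant genes and a fall of the remaining RNA cannot be told apart. The number of genes above 0 FPKM was 38341, 39147 and 39119 in *ATG5*-silenced libraries and 38764, 38804 and 38654 in *ATG2*-silenced libraries, and these ranges overlapped (exact permutation test, p = 0.6). The decimals set this overlap, since with all values rounded to 1 decimal the *ATG5*-silenced libraries had 35476, 36428 and 36342 such genes, all below the *ATG2*-silenced ones. Unannotated transcripts held 10.04%, 11.1% and 10.5% of FPKM in *ATG5*-silenced libraries, against 9.53%, 9.76% and 9.4% in *ATG2*-silenced libraries (exact permutation test, p = 0.1, adjusted p = 0.133).

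**Figure D2:**
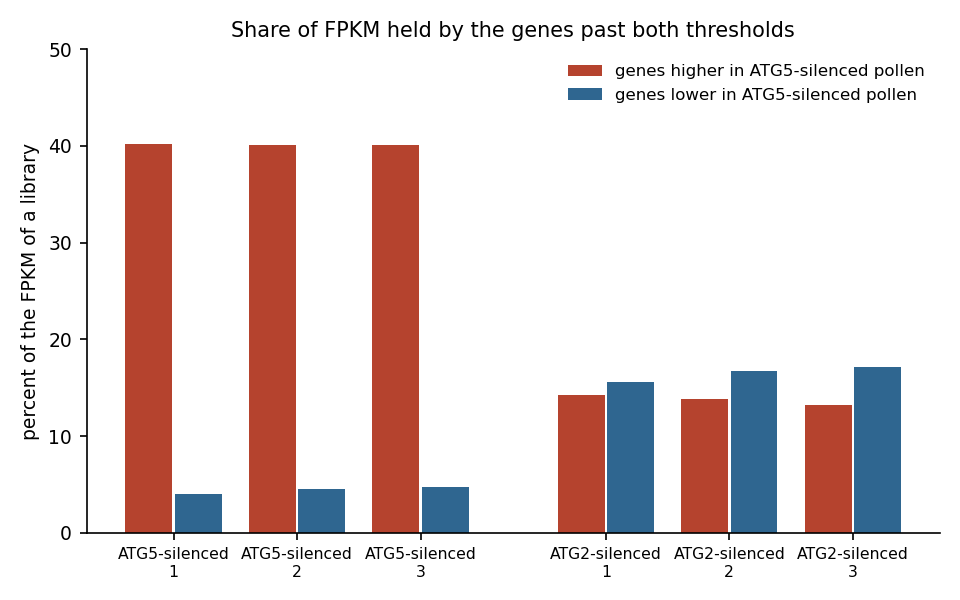
Percent of the FPKM of each library held by the genes called higher (red bars) and called lower (blue bars) in *ATG5*-silenced pollen, with 1 pair of bars per library and *ATG5*-silenced libraries on the left. The red bars stand at 40.1% to 40.2% in *ATG5*-silenced libraries and at 13.2% to 14.3% in *ATG2*-silenced ones.

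The most abundant genes of the lines shared few members at the top. Of the 10 genes of highest mean FPKM in each line, 2 were shared, of the top 20, 8 were shared, and of the top 100, 65. The 10 most abundant genes of *ATG5*-silenced pollen held 12.3% to 12.6% of FPKM there, against 4.19% to 4.98% in *ATG2*-silenced pollen. These genes were again picked by the values themselves.

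The pollen gene *ntp201* (GeneID:107815818) was the most abundant transcript of *ATG5*-silenced pollen, at 16265, 15306 and 15180 FPKM, against 6000.3, 5935 and 5273 FPKM in *ATG2*-silenced pollen, where it ranked 14. The groups did not overlap, and the log2 change was 1.92 ± 0.09 (SE, n = 3 each, limma, adjusted p = 1.48e-05), or 0.97 after quantile normalization. Among the 5 abundant genes of largest gain, the largest log2 change was that of GeneID:107796742, a gene without a name in the reference. It was at 8944, 9244 and 10777 FPKM in *ATG5*-silenced pollen, against 751, 708 and 675 FPKM in *ATG2*-silenced pollen, with a log2 change of 4.24 ± 0.09 (SE, limma, adjusted p = 2.89e-06). It ranked 10 in *ATG5*-silenced pollen and 241 in *ATG2*-silenced pollen, without overlap of the libraries. The other 3, also without a name, were called higher under all 4 scalings. GeneID:107782692 averaged 9859 ± 1139.9 FPKM in *ATG5*-silenced pollen and 1323 ± 212 FPKM in *ATG2*-silenced pollen (SD, n = 3 each). GeneID:107801067 averaged 11181 ± 938 FPKM in *ATG5*-silenced pollen and 2912 ± 89.9 FPKM in *ATG2*-silenced pollen, and GeneID:107813865 averaged 9901 ± 1014 FPKM in *ATG5*-silenced pollen and 3049 ± 589 FPKM in *ATG2*-silenced pollen.

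Among the abundant genes called lower, the 5 of largest loss of FPKM were all without a name. GeneID:107803115 was at 2026, 2001 and 2090.4 FPKM in *ATG5*-silenced pollen, against 7597, 7646 and 8538 FPKM in *ATG2*-silenced pollen, where it ranked 5 (log2 change -1.48 ± 0.07, SE, limma, adjusted p = 1.41e-05). GeneID:107817512 was at 1344, 1457 and 1603 FPKM in *ATG5*-silenced pollen, against 6743, 6814 and 6926 FPKM in *ATG2*-silenced pollen, where it ranked 8 (log2 change -1.74 ± 0.07, SE, limma, adjusted p = 9.90e-06). GeneID:107817126 was at 1080.5, 1139 and 1189.9 FPKM in *ATG5*-silenced pollen, against 5656, 5842 and 7011 FPKM in *ATG2*-silenced pollen (log2 change -1.96 ± 0.08, SE, limma, adjusted p = 1.37e-05). No library of one line overlapped the other in these 3 genes. GeneID:107827123 averaged 1713 ± 403 FPKM in *ATG5*-silenced pollen and 5609.5 ± 529.8 FPKM in *ATG2*-silenced pollen (log2 change -1.26, limma, adjusted p = 0.00102). GeneID:107787123 averaged 2044 ± 86.1 FPKM in *ATG5*-silenced pollen and 5972 ± 1704 FPKM in *ATG2*-silenced pollen, and its log2 change of -1.03 became -0.836 without *ATG2*-silenced replicate 3, below the threshold for the fold.

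Of the tested annotated genes 8.26% were called higher and 9.38% lower, against 14.2% and 10% of all tested genes. Genes with a name in the reference numbered 431 among those tested. Of these named genes, 22 were called higher and 54 lower, that is 5.1% and 12.5%. The 15 of largest rise and the 15 of largest fall, among those of at least 5 FPKM in 1 line and without overlap of the libraries, are plotted by library, except 1 rise. All of them passed under all 4 scalings and in every fit with 1 library left out. Of the rises, *cdc2*, *T407*, *CIP2a* and *GA2ox3* were called under all 4 scalings.

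**Figure D3:**
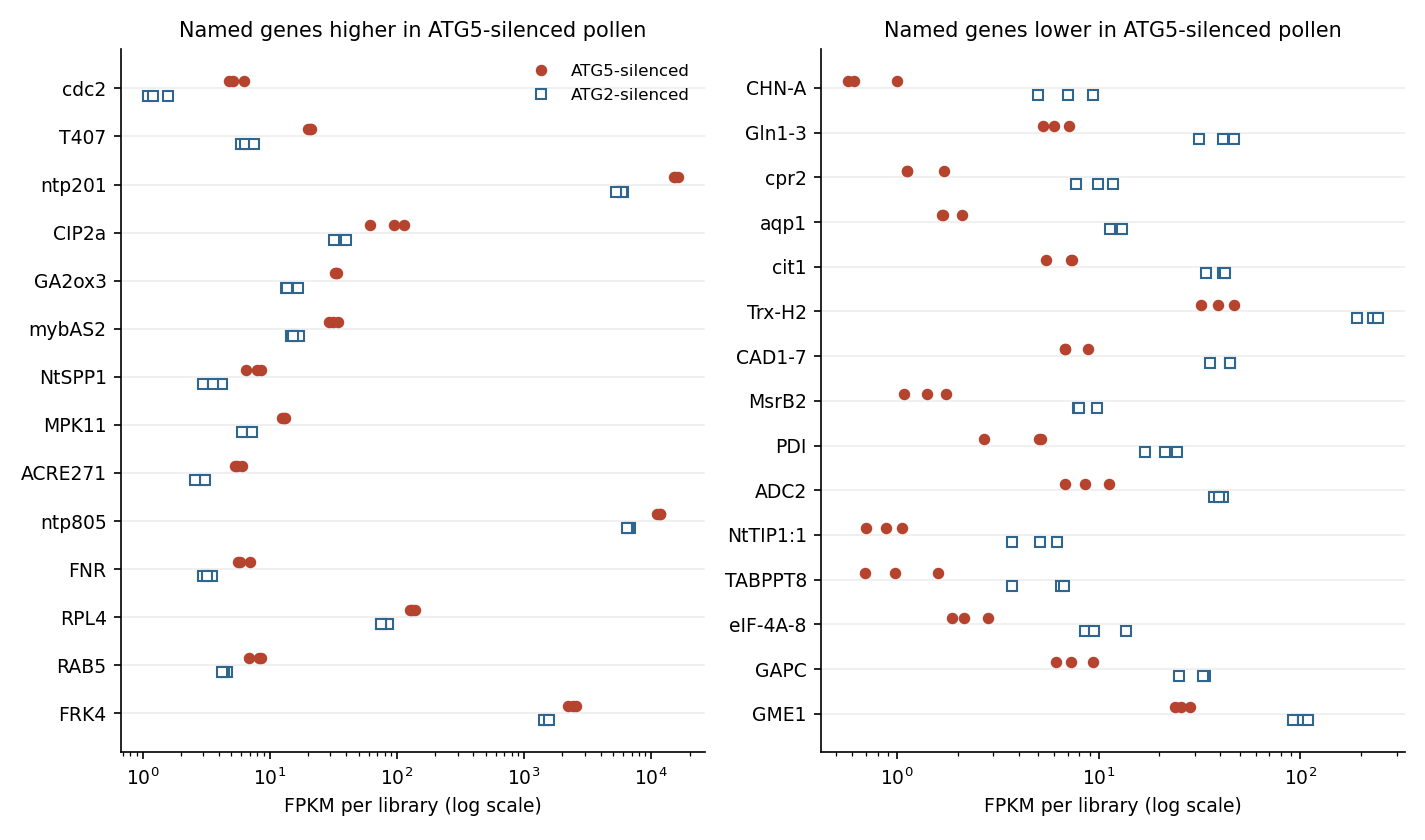
FPKM per library on a log axis for the named genes of largest rise (left, all but 1 of the 15) and the 15 of largest fall (right), ordered by log2 change with the largest at the top. Filled circles are *ATG5*-silenced libraries and open squares *ATG2*-silenced libraries, and circles and squares do not overlap in any gene.

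The largest of these rises was in a copy of *cdc2* (GeneID:107785170), which codes for a cyclin-dependent kinase. It was at 4.8, 6.23 and 5.19 FPKM in *ATG5*-silenced pollen, against 1.6, 1.1 and 1.2 FPKM in *ATG2*-silenced pollen (log2 change 2.1 ± 0.16, SE, limma, adjusted p = 1.05e-04). *GA2ox3*, a gibberellin 2-oxidase that inactivates gibberellins, was at 32.9, 34.0 and 33.2 FPKM in *ATG5*-silenced pollen, against 13.4, 13.7 and 16.8 FPKM in *ATG2*-silenced pollen (log2 change 1.63 ± 0.1, SE, limma, adjusted p = 3.82e-05). *mybAS2*, a MYB transcription factor, averaged 31.6 ± 2.69 FPKM in *ATG5*-silenced pollen and 15.6 ± 1.14 FPKM in *ATG2*-silenced pollen (SD, n = 3 each; log2 change 1.46, limma, adjusted p = 3.56e-05). The libraries of the lines did not overlap in any of the 3 genes. Sucrose-phosphate phosphatase *NtSPP1*, which completes sucrose synthesis, averaged 7.68 ± 1.04 FPKM in *ATG5*-silenced pollen and 3.6 ± 0.60 FPKM in *ATG2*-silenced pollen. The mitogen-activated protein kinase *MPK11* averaged 12.9 ± 0.386 FPKM in *ATG5*-silenced pollen and 6.6 ± 0.557 FPKM in *ATG2*-silenced pollen. The log2 change was 1.43 for *NtSPP1* and 1.37 for *MPK11*, and 1.0 and 0.92 with FPKM as deposited.

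*FRK4*, a fructokinase, was among the more abundant named rises, at 2445, 2565 and 2231 FPKM in *ATG5*-silenced pollen, against 1482, 1429 and 1558 FPKM in *ATG2*-silenced pollen. The lines did not overlap, and its log2 change of 1.17 ± 0.08 (SE, limma, adjusted p = 6.97e-05) was 0.69 with FPKM as deposited. *RPL4*, a protein of the large ribosomal subunit, averaged 132 ± 5.81 FPKM in *ATG5*-silenced pollen and 78.4 ± 5.95 FPKM in *ATG2*-silenced pollen (log2 change 1.22, limma, adjusted p = 1.10e-04). *RAB5*, a small GTPase, averaged 7.9 ± 0.909 FPKM in *ATG5*-silenced pollen and 4.4 ± 0.20 FPKM in *ATG2*-silenced pollen (log2 change 1.21, limma, adjusted p = 3.49e-04). With FPKM as deposited the log2 change was 0.75 for *RPL4* and 0.77 for *RAB5*. The other rises shown were *T407*, *CIP2a*, *ACRE271*, *FNR* and *ntp805*.

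The 15 named falls plotted lay in genes of low to medium abundance, with the highest mean at 221 FPKM for *Trx-H2* in *ATG2*-silenced pollen. More abundant genes were called lower as well, such as *PRO2* at a mean of 1313.5 FPKM in *ATG2*-silenced pollen. *CHN-A*, a chitinase, was at 0.61, 1.0 and 0.57 FPKM in *ATG5*-silenced pollen, against 5.0, 7.0 and 9.4 FPKM in *ATG2*-silenced pollen (log2 change -2.25 ± 0.24, SE, limma, adjusted p = 3.89e-04). *Gln1-3*, a cytosolic glutamine synthetase that fixes ammonium into glutamine, was at 5.27, 7.16 and 6.0 FPKM in *ATG5*-silenced pollen, against 31.6, 46.8 and 41.4 FPKM in *ATG2*-silenced pollen (log2 change -2.14 ± 0.15, SE, limma, adjusted p = 8.31e-05). *Trx-H2*, a thioredoxin, was at 32.3, 47.1 and 38.9 FPKM in *ATG5*-silenced pollen, against 191, 229 and 243 FPKM in *ATG2*-silenced pollen (log2 change -2.01 ± 0.14, SE, limma, adjusted p = 6.95e-05). Every *ATG5*-silenced library was below every *ATG2*-silenced library in these genes. *cit1*, a citrate synthase of the citric acid cycle, averaged 6.71 ± 1.09 FPKM in *ATG5*-silenced pollen and 39.3 ± 4.49 FPKM in *ATG2*-silenced pollen (SD, n = 3 each). The aquaporin *aqp1* averaged 1.82 ± 0.246 FPKM in *ATG5*-silenced pollen and 12.4 ± 0.85 FPKM in *ATG2*-silenced pollen, and the tonoplast aquaporin *NtTIP1:1* averaged 0.88 ± 0.18 FPKM in *ATG5*-silenced pollen and 5.0 ± 1.25 FPKM in *ATG2*-silenced pollen. *GME1*, a GDP-mannose epimerase of ascorbate and cell wall sugar synthesis, averaged 25.9 ± 2.27 FPKM in *ATG5*-silenced pollen and 102 ± 8.63 FPKM in *ATG2*-silenced pollen. The log2 changes were -2.01 for *cit1*, -2.06 for *aqp1*, -1.61 for *NtTIP1:1* and -1.48 for *GME1*. The remaining falls were *cpr2*, *CAD1-7*, *MsrB2*, *PDI*, *ADC2*, *TABPPT8*, *eIF-4A-8* and *GAPC*.

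Genes with a known role were then grouped into 24 lists written from their names, with 248 tested genes in all. A member passed at an adjusted p under 0.05 whatever its fold. Over all tested genes 26.5% passed higher and 28% lower in *ATG5*-silenced pollen, with a median log2 change of -0.07. The lists hold annotated genes only, and the tested annotated genes alone had a median of -0.155, against 0.459 for unannotated transcripts. The medians of the lists below move with the scaling as that of all genes does. Among the list members, 20 reached 0.5 FPKM in libraries of one line only. Without them the genes passing lower would number 3 in place of 5 in autophagy, none in place of 2 in RNA silencing and none in place of 1 in the proteasome list. They would number 5 in place of 6 among ribosomal proteins, 7 in place of 8 among lipid genes, 6 in place of 7 in both the cytoskeleton and transport, 1 in place of 2 among transcription factors and 5 in place of 7 among redox genes.

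**Figure D4:**
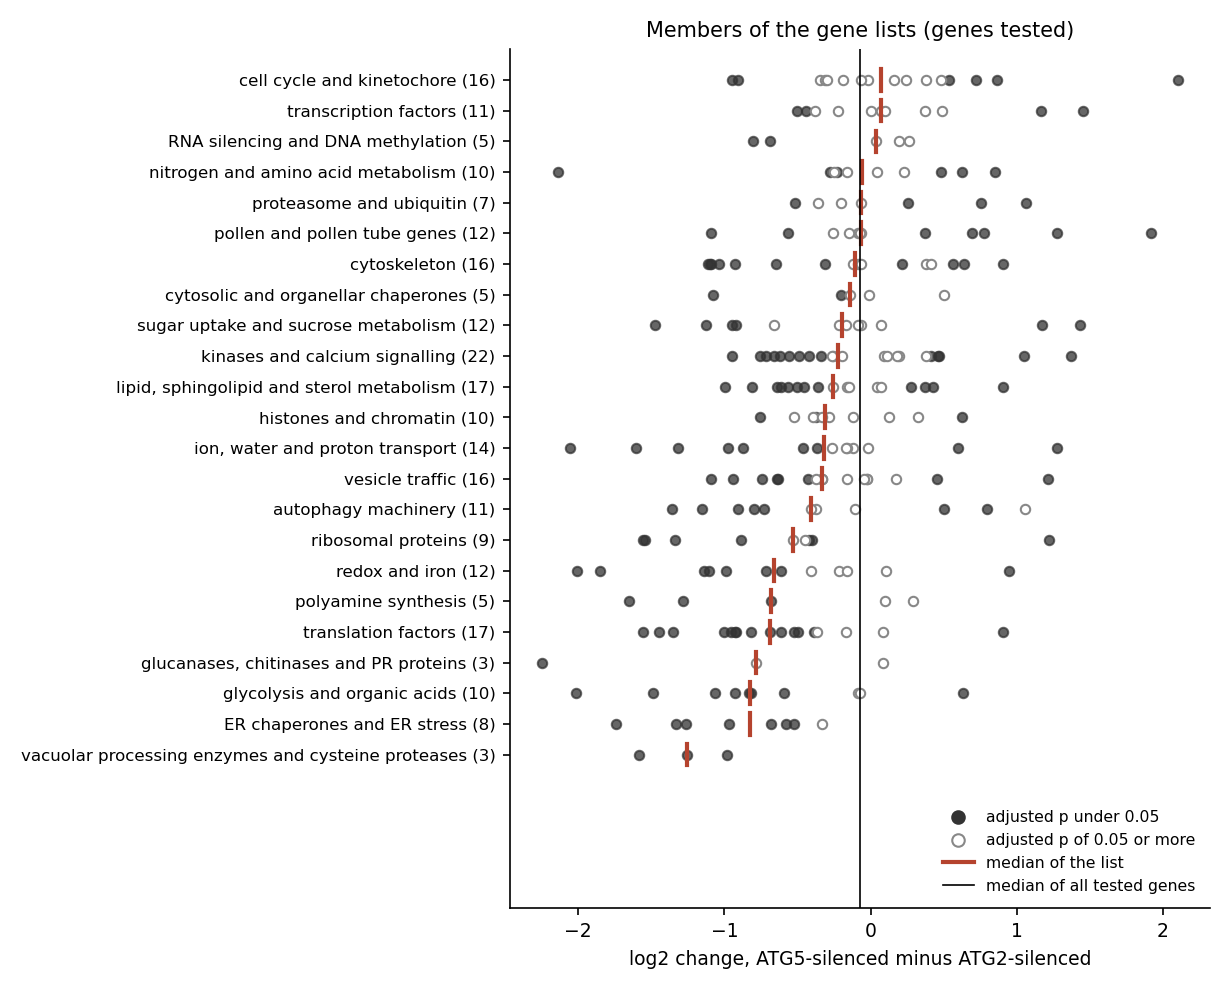
Log2 change, *ATG5*-silenced minus *ATG2*-silenced pollen, of each tested member of the gene lists with 3 or more tested members (their number in brackets). Filled points passed an adjusted p under 0.05, open points did not, red bars mark the median of a list and the vertical line the median of all tested genes at -0.07.

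Genes of protein synthesis were mostly lower in *ATG5*-silenced pollen. Of 17 translation factors, 13 passed lower, all of them under all 4 scalings, and 1 passed higher, with a median log2 change of -0.69. The RNA helicase *eIF-4A-9*, which unwinds mRNA for scanning, was at 10.2, 8.51 and 7.97 FPKM in *ATG5*-silenced pollen, against 33.4, 35.2 and 35.2 FPKM in *ATG2*-silenced pollen (log2 change -1.45 ± 0.12, SE, limma, adjusted p = 1.21e-04), without overlap. A copy of the poly(A)-binding protein *PABP* (GeneID:107784553) averaged 36.3 ± 3.14 FPKM in *ATG5*-silenced pollen and 96.2 ± 8.02 FPKM in *ATG2*-silenced pollen (log2 change -0.92, limma, adjusted p = 1.70e-04). The cap-binding protein *eIFiso4E* averaged 41.7 ± 1.49 FPKM in *ATG5*-silenced pollen and 83.6 ± 5.66 FPKM in *ATG2*-silenced pollen (log2 change -0.52, limma, adjusted p = 0.0015). Many of the 13 falls were copies of the same genes. They included the helicase copies *eIF-4A-7*, *eIF-4A-8*, *eIF-4A-9*, *eIF-4A-10*, *eIF-4A-11* and *eIF-4A-14* and both copies of *PABP*. Between close copies reads can be divided uncertainly. The helicase copies differed among themselves. *eIF-4A-6* had a log2 change of -0.17 (limma, adjusted p = 0.168), and *eIF-4A-15* one of 0.09 (adjusted p = 0.423) that was -0.37 with FPKM as deposited. *eIF-4A-10* was called lower, but its log2 change of -1.0 was -0.939 to -0.992 without *ATG5*-silenced replicate 1 or 2 or without *ATG2*-silenced replicate 1. The factor that passed higher was *eIF3a*, at 2.87, 1.66 and 1.17 FPKM in *ATG5*-silenced pollen and 1.2, 0.90 and 1.1 FPKM in *ATG2*-silenced pollen. These values overlapped, and *eIF3a* did not pass under every scaling or in every fit with 1 library left out. Of 9 ribosomal proteins 6 passed lower, 5 of them under all 4 scalings, and 1 higher, which was *RPL4*. In every fit with 1 library left out, 4 of the falls passed. The list summed to between 172 and 174 FPKM in *ATG5*-silenced libraries and between 166 and 174 FPKM in *ATG2*-silenced libraries. *RPL23* was at 2.47, 1.55 and 3.05 FPKM in *ATG5*-silenced pollen, against 9.2, 9.7 and 8.0 FPKM in *ATG2*-silenced pollen (log2 change -1.34 ± 0.22, SE, limma, adjusted p = 0.00228), without overlap.

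Genes of the endoplasmic reticulum (ER) were lower as well. Of 8 ER chaperones and ER stress genes 7 passed lower, under all 4 scalings and in every fit with 1 library left out, with a median log2 change of -0.83. *PDI*, a protein disulfide isomerase that forms disulfide bonds in new proteins, was at 2.71, 5.17 and 5.06 FPKM in *ATG5*-silenced pollen, against 17.0, 24.5 and 21.2 FPKM in *ATG2*-silenced pollen (log2 change -1.74 ± 0.23, SE, limma, adjusted p = 0.00104). *BIP2*, an Hsp70 chaperone of the ER, was at 2.08, 2.19 and 2.54 FPKM in *ATG5*-silenced pollen, against 7.1, 9.4 and 10.2 FPKM in *ATG2*-silenced pollen (log2 change -1.33 ± 0.14, SE, limma, adjusted p = 4.16e-04). Neither gene overlapped between the lines. *BIP1* averaged 17.0 ± 1.17 FPKM in *ATG5*-silenced pollen and 34.3 ± 3.41 FPKM in *ATG2*-silenced pollen, and the cell death suppressor *BI-1* averaged 28.8 ± 2.37 FPKM in *ATG5*-silenced pollen and 60.1 ± 2.07 FPKM in *ATG2*-silenced pollen. *BIP8* did not pass (log2 change -0.33, limma, adjusted p = 0.0617). The BiP genes are close copies, between which reads can be divided uncertainly.

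Of 5 cytosolic and organellar chaperones 2 passed lower and none higher, with a median log2 change of -0.14. *HSP70-3* was at 2.47, 3.67 and 3.48 FPKM in *ATG5*-silenced pollen, against 8.2, 11.6 and 10.3 FPKM in *ATG2*-silenced pollen, and its log2 change of -1.08 became -0.924 without *ATG5*-silenced replicate 1 and -0.986 without *ATG2*-silenced replicate 2. The other, *NtHsp70*, had a log2 change of -0.2 (limma, adjusted p = 0.042), which did not pass in any fit with 1 library left out (adjusted p up to 0.156). *hsp90* had a log2 change of -0.14 (95% CI -0.35 to 0.07, limma, adjusted p = 0.217).

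All 3 tested vacuolar processing enzymes and cysteine proteases passed lower under all 4 scalings, with a median log2 change of -1.26, while the list held 12 genes in all. *NtVPE-3*, a vacuolar processing enzyme that activates vacuolar proteins, was at 0.43, 0.59 and 0.45 FPKM in *ATG5*-silenced pollen, against 2.6, 3.4 and 3.7 FPKM in *ATG2*-silenced pollen (log2 change -1.58 ± 0.17, SE, limma, adjusted p = 3.58e-04). *NTCP-23*, a cysteine protease, was at 3.14, 4.7 and 4.51 FPKM in *ATG5*-silenced pollen, against 14.7, 13.9 and 14.4 FPKM in *ATG2*-silenced pollen (log2 change -1.26 ± 0.14, SE, limma, adjusted p = 5.04e-04). Both stood apart between the lines. Among 7 proteasome and ubiquitin genes 3 passed higher, 2 of them under all 4 scalings, and 1 lower. *cul1B*, a cullin scaffold of ubiquitin ligases, was at 16.9, 17.0 and 15.9 FPKM in *ATG5*-silenced pollen, against 10.7, 11.2 and 10.4 FPKM in *ATG2*-silenced pollen (log2 change 1.06 ± 0.08, SE, limma, adjusted p = 1.15e-04; 0.6 with FPKM as deposited), without overlap. The copy *cul1A* averaged 43.4 ± 0.817 FPKM in *ATG5*-silenced pollen and 50.5 ± 1.73 FPKM in *ATG2*-silenced pollen, with a log2 change of 0.26 that turned to -0.214 with FPKM as deposited and -0.0903 with equal totals, and that did not pass in 3 of the 6 fits with 1 library left out. The lower gene, *Cdc27B*, did not pass in every such fit.

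The autophagy machinery was weakly expressed in both lines. Of 19 genes 11 were tested, with a median log2 change of -0.41, and 5 passed lower and 2 higher, the silenced genes included. *JOKA2*, the tobacco cargo receptor of selective autophagy, was at 0.46, 0.48 and 0.69 FPKM in *ATG5*-silenced pollen, against 2.1, 2.8 and 2.3 FPKM in *ATG2*-silenced pollen (log2 change -1.15 ± 0.17, SE, limma, adjusted p = 0.00133), without overlap. Both copies of *ATG6*, a subunit of the phosphatidylinositol 3-kinase complex, were lower. GeneID:107784737 averaged 0.947 ± 0.282 FPKM in *ATG5*-silenced pollen and 2.97 ± 0.404 FPKM in *ATG2*-silenced pollen and GeneID:107828723 averaged 0.623 ± 0.158 FPKM in *ATG5*-silenced pollen and 1.93 ± 0.252 FPKM in *ATG2*-silenced pollen (limma, adjusted p = 0.00743 and 0.00871). *ATG18d*, of the family of ATG2 partners, averaged 0.383 ± 0.159 FPKM in *ATG5*-silenced pollen and 1.27 ± 0.321 FPKM in *ATG2*-silenced pollen (log2 change -0.73), and it did not pass without *ATG5*-silenced replicate 2. It reached 0.5 FPKM in *ATG2*-silenced pollen only, as *ATG5* did, so no adjusted p is given for it. With *ATG5* these made the 5 genes that passed lower, all under all 4 scalings, of which 3 remain without *ATG5* and *ATG18d*. *ATG13b*, of the ATG1 kinase complex, passed higher (log2 change 0.5, limma, adjusted p = 0.0325), but not under every scaling or in every fit with 1 library left out. *ATG9*, *ATG10*, *VPS15* and *VPS34* did not pass. *VPS34*, the lipid kinase of the ATG6 complex, was at 1.8, 1.62 and 1.19 FPKM in *ATG5*-silenced pollen and 0.90, 1.9 and 0 FPKM in *ATG2*-silenced pollen.

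In the list of RNA silencing and DNA methylation 2 of 5 passed lower, but both reached 0.5 FPKM only in the *ATG2*-silenced libraries, so their values are a description. *NtRDR6*, an RNA-dependent RNA polymerase of secondary small RNAs, averaged 0.183 ± 0.0569 FPKM in *ATG5*-silenced pollen and 0.767 ± 0.0577 FPKM in *ATG2*-silenced pollen. Its partner *NtSGS3a* averaged 0.417 ± 0.0306 FPKM in *ATG5*-silenced pollen and 1.47 ± 0.321 FPKM in *ATG2*-silenced pollen. The copy *NtSGS3b* averaged 1.36 ± 0.226 FPKM in *ATG5*-silenced pollen and 1.47 ± 0.208 FPKM in *ATG2*-silenced pollen, and its log2 change of 0.27 (adjusted p = 0.197) turned to -0.085 with FPKM as deposited.

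Genes of glycolysis and organic acids were mostly lower. Of 10 tested, 7 passed lower under all 4 scalings and 1 higher, with a median log2 change of -0.83. *GAPC*, a cytosolic glyceraldehyde-3-phosphate dehydrogenase, was at 6.11, 9.36 and 7.31 FPKM in *ATG5*-silenced pollen, against 25.1, 33.7 and 32.8 FPKM in *ATG2*-silenced pollen (log2 change -1.49 ± 0.16, SE, limma, adjusted p = 4.24e-04). *enolase*, which makes phosphoenolpyruvate, was at 78.2, 78.8 and 77.0 FPKM in *ATG5*-silenced pollen, against 161, 193 and 228 FPKM in *ATG2*-silenced pollen (log2 change -0.82 ± 0.11, SE, limma, adjusted p = 0.00118). The lines did not overlap in either. *PEPC*, which carboxylates phosphoenolpyruvate to refill the citric acid cycle, averaged 4.97 ± 0.386 FPKM in *ATG5*-silenced pollen and 12.8 ± 1.7 FPKM in *ATG2*-silenced pollen. *PDC2*, a pyruvate decarboxylase of ethanolic fermentation, averaged 5.87 ± 0.813 FPKM in *ATG5*-silenced pollen and 16.1 ± 2.53 FPKM in *ATG2*-silenced pollen. *GAPC1* was called lower at a log2 change of -1.06, which was -0.933 without *ATG5*-silenced replicate 1. *IDH*, an isocitrate dehydrogenase, passed higher (log2 change 0.63, limma, adjusted p = 0.00305), but not under every scaling.

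Sugar genes moved both ways, with 2 of 12 passing higher and 4 lower, each under all 4 scalings, and a median log2 change of -0.19. The hexokinases, which phosphorylate glucose, fell in part. *Hxk1a* was at 55.0, 54.9 and 62.1 FPKM in *ATG5*-silenced pollen, against 172, 174 and 178 FPKM in *ATG2*-silenced pollen (log2 change -1.13 ± 0.07, SE, limma, adjusted p = 4.19e-05). *Hxk1* was at 43.9, 40.1 and 45.9 FPKM in *ATG5*-silenced pollen, against 114, 117 and 112 FPKM in *ATG2*-silenced pollen (log2 change -0.92 ± 0.08, SE, limma, adjusted p = 1.51e-04). Neither overlapped between the lines, while *Hxk3* had a log2 change of -0.06 (limma, adjusted p = 0.639). The fructokinase *FRK2* was at 94.8, 105 and 109 FPKM in *ATG5*-silenced pollen, against 274, 288 and 267 FPKM in *ATG2*-silenced pollen (log2 change -0.95 ± 0.07, SE, limma, adjusted p = 8.07e-05), opposite to *FRK4*. The sucrose transporter *SUT3* had a log2 change of -0.17 (adjusted p = 0.145).

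Nitrogen and amino acid genes were mixed, with 3 of 10 higher and 3 lower and a median log2 change of -0.06. With each library left out in turn, the 3 rises but only 1 of the falls passed every time. Under all 4 scalings the 3 falls but only 1 of the rises passed, which for a fall says little. Beside the fall of *Gln1-3*, the nitrate reductases passed higher. *NIA1* averaged 2.77 ± 0.327 FPKM in *ATG5*-silenced pollen and 1.87 ± 0.231 FPKM in *ATG2*-silenced pollen (log2 change 0.85, limma, adjusted p = 0.00254) and passed under all 4 scalings, with 0.46 for FPKM as deposited. *NIA2* averaged 4.51 ± 0.256 FPKM in *ATG5*-silenced pollen and 3.87 ± 0.321 FPKM in *ATG2*-silenced pollen (log2 change 0.62, limma, adjusted p = 0.00476) and did not pass under all of them. *SAHH*, which recycles S-adenosylhomocysteine, had a log2 change of 0.48 at means of 139.6 FPKM in *ATG5*-silenced pollen and 139 FPKM in *ATG2*-silenced pollen, and it too did not pass under every scaling.

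In polyamine synthesis 3 of 5 genes passed lower, under all 4 scalings, with a median log2 change of -0.68. The arginine decarboxylases make agmatine, a precursor of putrescine. *ADC2* was at 6.8, 8.53 and 11.2 FPKM in *ATG5*-silenced pollen, against 37.1, 41.5 and 39.3 FPKM in *ATG2*-silenced pollen (log2 change -1.65 ± 0.16, SE, limma, adjusted p = 2.38e-04). *ADC1* was at 12.0, 14.3 and 18.2 FPKM in *ATG5*-silenced pollen, against 46.0, 55.4 and 50.4 FPKM in *ATG2*-silenced pollen (log2 change -1.28 ± 0.14, SE, limma, adjusted p = 4.22e-04). Neither overlapped between the lines. The copy *ADC1A* had a log2 change of 0.29 (adjusted p = 0.0818) that turned to -0.173 with FPKM as deposited and -0.0509 with equal totals.

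Of 17 lipid genes 8 passed lower, 7 of them under all 4 scalings, and 4 higher, none of them under all 4 scalings, with a median log2 change of -0.25. No member was past the threshold for the fold. *HMGR2*, a 3-hydroxy-3-methylglutaryl-CoA reductase early in sterol synthesis, was at 243, 223 and 209 FPKM in *ATG5*-silenced pollen, against 480.1, 479.8 and 499 FPKM in *ATG2*-silenced pollen (log2 change -0.64 ± 0.09, SE, limma, adjusted p = 0.00102), without overlap. *CAS1*, cycloartenol synthase of plant sterols, averaged 2.94 ± 0.442 FPKM in *ATG5*-silenced pollen and 8.77 ± 1.4 FPKM in *ATG2*-silenced pollen. *DAGAT*, a diacylglycerol acyltransferase of storage oil, averaged 3.5 ± 0.506 FPKM in *ATG5*-silenced pollen and 7.73 ± 0.551 FPKM in *ATG2*-silenced pollen. These 3 falls held under all 4 scalings, as nearly all falls did. The desaturase *FAD3* averaged 459.7 ± 19.3 FPKM in *ATG5*-silenced pollen and 476 ± 37.5 FPKM in *ATG2*-silenced pollen, with a log2 change of 0.43 that turned to -0.0474 with FPKM as deposited. *Acx1B*, an acyl-CoA oxidase of fatty acid breakdown, averaged 4.49 ± 1.15 FPKM in *ATG5*-silenced pollen and 3.0 ± 0.265 FPKM in *ATG2*-silenced pollen (log2 change 0.91, limma, adjusted p = 0.0062).

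Pollen genes were among the most abundant and did not move together. Of 12 tested 5 passed higher, 2 of them under all 4 scalings, and 2 lower, both under all 4 scalings, with a median log2 change of -0.07. *ntp805* was at 11725, 11706 and 11167 FPKM in *ATG5*-silenced pollen, against 6804, 6663 and 6457 FPKM in *ATG2*-silenced pollen (log2 change 1.27 ± 0.07, SE, limma, adjusted p = 2.62e-05), and its log2 change was 0.8 with FPKM as deposited and 0.31 after quantile normalization. *ntp101* was at 13376, 12388 and 11416 FPKM in *ATG5*-silenced pollen, against 10369, 10225 and 9578 FPKM in *ATG2*-silenced pollen, with a log2 change of 0.78 that turned to -0.19 after quantile normalization. *PRO1*, a profilin that binds actin monomers, went the other way, at 271, 320.4 and 305 FPKM in *ATG5*-silenced pollen, against 839, 929 and 887 FPKM in *ATG2*-silenced pollen (log2 change -1.09 ± 0.07, SE, limma, adjusted p = 5.22e-05). The lines did not overlap in any of these 3 genes. The pectin methylesterase *PPME1*, which modifies the wall of the pollen tube, was at 2517, 2279.5 and 2088 FPKM in *ATG5*-silenced pollen, against 4559.7, 4602 and 4990.3 FPKM in *ATG2*-silenced pollen (log2 change -0.57 ± 0.1, SE, limma, adjusted p = 0.00263), also without overlap. The calmodulin-binding protein *Npg1* had a log2 change of -0.08 (adjusted p = 0.33) and the actin-bundling protein *PLIM-2* one of -0.06 (adjusted p = 0.618).

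In the cytoskeleton 7 of 16 genes passed lower, all under all 4 scalings, and 4 higher, 1 of them under all 4 scalings, with a median log2 change of -0.1. The profilin *PRO2* was at 414, 464 and 433 FPKM in *ATG5*-silenced pollen, against 1236, 1333 and 1372 FPKM in *ATG2*-silenced pollen (log2 change -1.11 ± 0.06, SE, limma, adjusted p = 3.30e-05), without overlap, and *PRO3* had a smaller fall (log2 change -0.31, limma, adjusted p = 0.00752). The actin *Tob103* averaged 51.1 ± 1.16 FPKM in *ATG5*-silenced pollen and 146 ± 5.78 FPKM in *ATG2*-silenced pollen, whereas the actin *Tob93* averaged 381 ± 29.2 FPKM in *ATG5*-silenced pollen and 358 ± 14.3 FPKM in *ATG2*-silenced pollen, with a log2 change of 0.56 that was 0.09 with FPKM as deposited. The beta-tubulins parted likewise. *TUB6* averaged 21.8 ± 2.38 FPKM in *ATG5*-silenced pollen and 65.7 ± 9.34 FPKM in *ATG2*-silenced pollen (log2 change -1.1, limma, adjusted p = 3.67e-04). *TUB8* was at 1851, 1759.6 and 1451 FPKM in *ATG5*-silenced pollen, against 1222, 1155 and 1370 FPKM in *ATG2*-silenced pollen (log2 change 0.91 ± 0.12, SE, limma, adjusted p = 0.00101; 0.43 with FPKM as deposited), again without overlap.

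Transport and redox genes were lower more often than higher in number. Of 14 genes of ion, water and proton transport 7 passed lower under all 4 scalings and 2 higher, with a median log2 change of -0.32. *NtVDAC1*, a channel of the outer mitochondrial membrane, was at 1.56, 1.94 and 1.85 FPKM in *ATG5*-silenced pollen, against 6.1, 7.6 and 7.5 FPKM in *ATG2*-silenced pollen (log2 change -1.32 ± 0.13, SE, limma, adjusted p = 2.47e-04), without overlap. *VATG2*, a subunit of the vacuolar proton pump, averaged 3.48 ± 0.182 FPKM in *ATG5*-silenced pollen and 9.37 ± 0.751 FPKM in *ATG2*-silenced pollen. The proton pump of the plasma membrane *nha1* averaged 975 ± 25.2 FPKM in *ATG5*-silenced pollen and 1753 ± 32.7 FPKM in *ATG2*-silenced pollen (log2 change -0.37 ± 0.06, SE, limma, adjusted p = 0.0019). Of 12 redox and iron genes 7 passed lower under all 4 scalings and 1 higher, with a median of -0.66. Of these 12 genes, 3 reached 0.5 FPKM in libraries of one line only, and without them 5 passed lower. *NtFer1*, a ferritin that stores iron, averaged 11.1 ± 1.88 FPKM in *ATG5*-silenced pollen and 33.4 ± 1.99 FPKM in *ATG2*-silenced pollen, and its log2 change of -1.1 became -0.978 without *ATG5*-silenced replicate 1. *catalase-3*, which breaks down hydrogen peroxide, was the one that passed higher, at 197, 204 and 218 FPKM in *ATG5*-silenced pollen, against 144, 152 and 149 FPKM in *ATG2*-silenced pollen (log2 change 0.95 ± 0.06, SE, limma, adjusted p = 4.59e-05; 0.47 with FPKM as deposited), under all 4 scalings and without overlap.

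Of 16 vesicle traffic genes 7 passed lower under all 4 scalings and 2 higher, with a median log2 change of -0.33. *SAR1*, the GTPase that starts COPII vesicles at the ER, was at 45.6, 44.4 and 44.1 FPKM in *ATG5*-silenced pollen, against 120, 116 and 123 FPKM in *ATG2*-silenced pollen (log2 change -0.94 ± 0.07, SE, limma, adjusted p = 8.31e-05). *Rab8-4*, of a GTPase family of secretion, was at 23.6, 23.6 and 21.4 FPKM in *ATG5*-silenced pollen, against 67.6, 63.5 and 74.8 FPKM in *ATG2*-silenced pollen (log2 change -1.09 ± 0.09, SE, limma, adjusted p = 1.59e-04). *Nt-rab7a*, of a GTPase family of the late endosome and vacuole, averaged 19.2 ± 2.74 FPKM in *ATG5*-silenced pollen and 44.7 ± 0.611 FPKM in *ATG2*-silenced pollen. The lines were separate in all 3. *Rab2*, *VTI12a* and *GDI* did not pass, with log2 changes of -0.02, -0.03 and -0.05 (limma, adjusted p = 0.782, 0.777 and 0.733).

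Signalling genes were divided. Of 22 kinases and calcium signalling genes 9 passed lower under all 4 scalings and 5 higher, 2 of them under all 4 scalings, with a median log2 change of -0.23. *MPK16*, a mitogen-activated protein kinase, was at 12.6, 13.7 and 13.7 FPKM in *ATG5*-silenced pollen, against 29.1, 30.3 and 29.3 FPKM in *ATG2*-silenced pollen (log2 change -0.66 ± 0.07, SE, limma, adjusted p = 3.66e-04), without overlap. *MEK2*, a kinase of mitogen-activated kinases, averaged 8.95 ± 1.27 FPKM in *ATG5*-silenced pollen and 24.4 ± 1.42 FPKM in *ATG2*-silenced pollen (log2 change -0.94, limma, adjusted p = 4.62e-04). The calcium sensor *CBL2* averaged 57.7 ± 1.47 FPKM in *ATG5*-silenced pollen and 119 ± 6.07 FPKM in *ATG2*-silenced pollen, and *CBL3* averaged 5.54 ± 0.457 FPKM in *ATG5*-silenced pollen and 13.4 ± 0.10 FPKM in *ATG2*-silenced pollen. The nutrient kinases *TOR*, which represses autophagy when nutrients are ample, and *GCN2* were lower at low levels. *TOR* averaged 0.617 ± 0.123 FPKM in *ATG5*-silenced pollen and 1.63 ± 0.252 FPKM in *ATG2*-silenced pollen (log2 change -0.62, limma, adjusted p = 0.016) but did not pass without *ATG2*-silenced replicate 2 (adjusted p = 0.0585), and *GCN2* averaged 0.493 ± 0.0929 FPKM in *ATG5*-silenced pollen and 1.5 ± 0.173 FPKM in *ATG2*-silenced pollen (log2 change -0.71, limma, adjusted p = 0.00814).

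Of 55 transcription factors 28 were listed at 0 in all 6 libraries and 11 were tested, of which 2 passed higher and 2 lower, with a median log2 change of 0.07. Beside *mybAS2*, the bZIP factor *BZI-1* was higher, at 18.2, 18.3 and 16.0 FPKM in *ATG5*-silenced pollen, against 10.6, 11.7 and 9.4 FPKM in *ATG2*-silenced pollen (log2 change 1.16 ± 0.11, SE, limma, adjusted p = 2.82e-04; 0.7 with FPKM as deposited), without overlap. The ethylene response factor *NtERF5* was lower, at 41.5 ± 2.48 FPKM in *ATG5*-silenced pollen and 78.6 ± 1.85 FPKM in *ATG2*-silenced pollen (log2 change -0.44, limma, adjusted p = 0.00179).

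Of 16 cell cycle genes 4 passed higher and 2 lower, with 2 of each under all 4 scalings and a median log2 change of 0.07. Beside the *cdc2* copy of largest rise, the other copy (GeneID:107799146) averaged 1.48 ± 0.182 FPKM in *ATG5*-silenced pollen and 0.867 ± 0.208 FPKM in *ATG2*-silenced pollen (log2 change 0.86, limma, adjusted p = 0.00548). *CdkB1-1*, a cyclin-dependent kinase of cell division, went the other way, at 0.73, 0.93 and 0.51 FPKM in *ATG5*-silenced pollen, against 2.4, 2.3 and 2.4 FPKM in *ATG2*-silenced pollen (log2 change -0.9 ± 0.18, SE, limma, adjusted p = 0.00527), without overlap. Of 10 histone and chromatin genes 2 passed lower and 1 higher, with a median of -0.31. Of 3 tested glucanases, chitinases and pathogenesis-related proteins *CHN-A* passed lower and none passed higher, while 11 of the 21 in that list were listed at 0 in all 6 libraries. Neither of the 2 tested RNA processing genes passed.

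Related genes could part from each other within a library. The ratio of 2 genes within a library does not depend on its scaling factor. For it 10 pairs were chosen after their values were seen, so these ratios are given with no test. Where the genes of a pair are close copies, reads can be divided uncertainly between them, which bears on their ratio. The ratio of *FRK4* to *FRK2* was 25.8, 24.4 and 20.5 in *ATG5*-silenced pollen, against 5.4, 4.96 and 5.83 in *ATG2*-silenced pollen. The ratio of *TUB8* to *TUB6* was 92.7, 83.9 and 59.2 in *ATG5*-silenced pollen, against 20.1, 19.3 and 17.9 in *ATG2*-silenced pollen. The ratio of *Tob93* to *Tob103* was 7.91, 7.06 and 7.38 in *ATG5*-silenced pollen, against 2.52, 2.53 and 2.3 in *ATG2*-silenced pollen. The more abundant gene of each of these pairs made up more of the pair in *ATG5*-silenced pollen. For *ADC1A* to *ADC2* the order of the genes changed, with ratios of 2.01, 2.19 and 1.47 in *ATG5*-silenced pollen, against 0.456, 0.494 and 0.448 in *ATG2*-silenced pollen. The order also changed between the pollen genes *ntp201* and *ntp101*, with ratios of 1.22, 1.24 and 1.33 in *ATG5*-silenced pollen, against 0.579, 0.58 and 0.55 in *ATG2*-silenced pollen. No pair overlapped between the lines.

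**Figure D5:**
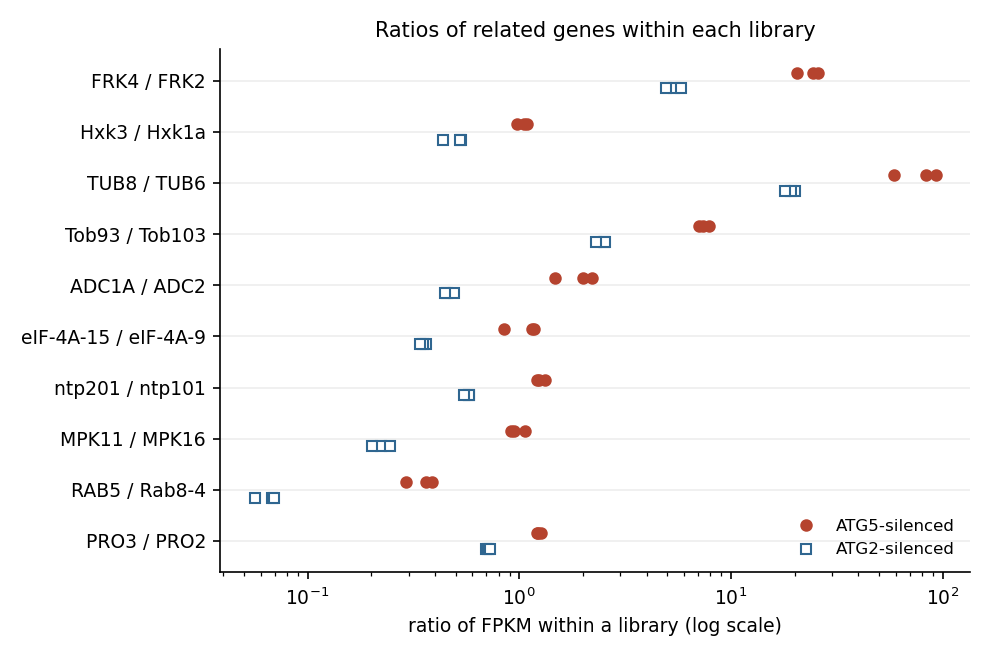
Ratio of the FPKM of 2 related genes within each library, on a log axis, for 10 pairs chosen after their values were seen. Filled circles are *ATG5*-silenced libraries and open squares *ATG2*-silenced libraries. All circles lie to the right of the squares, by 1.74-fold in the mean for *PRO3* to *PRO2* and by 5.38-fold for *RAB5* to *Rab8-4*.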

How the data were processed

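RNA of pollen was isolated with a MiniBEST kit and sequenced on the MGIseq2000. Per the labels and methods, the authors cleaned reads with SOAPnuke and mapped them to Ntab-TN90. They used HISAT2, Bowtie 2 and RSEM, with versions not given in the sources used here. The deposited values are FPKM, in a file per library, each with 1 line left out that carried no gene identifier or value. Counts were not used here, so the DESeq2 test of the authors was not repeated. Whether counting used strand is not given in the sources used here, so overlapping antisense genes cannot be told apart.

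Median-of-ratios factors came from the 14738 genes above 1 FPKM in all 6 libraries. After division by these, 0.5 was added and log2 taken. limma 3.58.1 in R 4.3.3 was fitted (lmFit, eBayes with trend and robust, n = 3 per line), and its two-sided p-values were adjusted (Benjamini-Hochberg) for all 26672 tests. The limma fit was tried on simulated log2 values that held no difference in scaling or decimals between the lines, so it does not cover those. Single values were compared by exact permutation tests in scipy under Python 3.11.15. Names and biotypes were taken from RefSeq for the K326 assembly ASM71507v2, where 53952 of the 69099 annotated identifiers have a record and 1081 a name. Genes named are *ATG2*, *ATG5*, the 15 named genes per direction of largest called change with at least 5 FPKM in 1 line and no overlap, the 5 called genes per direction of at least 100 FPKM with the largest difference, the 3 unannotated transcripts per direction of largest change, the 3 most abundant genes per line listed at 0 in the other, and up to 5 members of each list by smallest p. Of these, 1 gene is not reported here. Other list members and the ratio pairs were picked with their values in view. The comparison, rule and lists were chosen with earlier results of these data known. Alternatives were 3 other scalings, 2 pseudocounts, 2 filters, rounding, another spread model, a replicate block, annotated genes only and leaving out each library.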

Additional observations from a re-analysis of the deposited data

How the results depend on the processing

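With FPKM as deposited 2439 genes were called higher and 5690 lower (30% higher, median log2 change -0.435), and with equal totals 4817 were called lower (36.38% higher, median -0.344). With annotated genes only 1783 were called higher and 1741 lower (median -0.118), with fewer genes tested and the scaling factors recomputed. The median of all tested genes, -0.0713 in the fit reported, was -0.131 under quantile normalization, -0.0915 and -0.0563 with a pseudocount of 0.1 and 1, and -0.0359 without a filter. Leaving out 1 library gave 3165 to 3654 genes higher, 2075 to 2828 lower, 53.19% to 63.78% higher and a median of -0.0962 to -0.0235. The log2 change of *ATG5* lay between -1.45 and -1.28 and that of *ATG2* between 0.743 and 0.827 in the 3 such fits of each in which it passed the filter. With all values rounded to 1 decimal, genes above 0 FPKM differed by -2659 in place of 128.3 (*ATG5*-silenced minus *ATG2*-silenced), and genes of at least 1 FPKM by -1889 in place of -2228. Without 1 library these differences were -10.67 to 392.3 and -2370 to -2022, and those of the 100 most abundant genes and of unannotated transcripts 6.193 to 6.817 and 0.7339 to 1.244 percentage points. The libraries of the lines share replicate numbers, and same-numbered libraries deviated together at r = 0.053, 0.063 and -0.017 only. Such low values cannot show whether same-numbered libraries were handled together, so pairing was not settled. With a replicate block 3801 genes were called higher and 2648 lower (58.94% higher, median -0.0713), and *ADC1A* and *H3* passed (limma, adjusted p = 0.0427 and 0.00606). Unannotated transcript 629, *NtHsp70* and *NAP1;3* did not pass with it (limma, adjusted p = 0.0596, 0.0588 and 0.0785). Nor did *Cdc27B*, which reached 0.5 FPKM in *ATG2*-silenced pollen only.

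Of 139 named genes 118 could be fitted under all 17 alternatives, and 96 of these kept their direction and their side of the adjusted p throughout. Direction turned for 11 of the 139 under some alternative. With FPKM as deposited the log2 changes were -0.085 for *NtSGS3b*, -0.137 for *AGO1*, -0.2 for *NtDRM1*, -0.173 for *ADC1A*, -0.377 for *SAMDC*, -0.0474 for *FAD3*, -0.214 for *cul1A*, -0.13 for *CHN-B* and -0.236 for *NtSRD2B*. With equal totals they were -0.0511 for *AGO1*, -0.143 for *NtDRM1*, -0.0509 for *ADC1A*, -0.252 for *SAMDC*, -0.0903 for *cul1A*, -0.0761 for *CHN-B* and -0.162 for *NtSRD2B*. Under quantile normalization they were -0.0828 for *SAMDC*, 0.0328 for *dnaJ* and -0.19 for *ntp101*. *dnaJ* was also at 0.00646 with a pseudocount of 0.1 and at 0.0176 with annotated genes only. Without 1 library *dnaJ* was at -0.108 to 0.16, *NtDRM1* at -0.0963 to 0.117 and *NtSRD2B* at -0.0808 to 0.251. The causes were not tested. Values of *ATG2*-silenced libraries have 1 decimal, which limits weakly expressed genes.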
